A study of Mus musculus with 10 samples.

Results

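The miR-29 family was followed in small extracellular vesicles of the mouse heart. Its members were taken as every row of the deposited table whose name begins with mmu-miR-29a-, mmu-miR-29b- or mmu-miR-29c-, which gave 7 of 733 miRNA rows. There were 3 rows for 3p arms (mmu-miR-29a-3p, mmu-miR-29b-3p and mmu-miR-29c-3p, in short miR-29a-3p and so on) and 4 rows for 5p arms (miR-29a-5p, miR-29b-1-5p, miR-29b-2-5p and miR-29c-5p). The 3p arms were examined separately and as a sum. Rows were picked by name alone, but the family was chosen with earlier results of these data known.

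The vesicles came from hearts of male C57BL/6J mice in 5 control libraries and 5 libraries of mice given HFD (fat-rich food) plus L-NAME, the treated group. Treated mice started at an age of 8 weeks and received, for 12 weeks, food with 60% fat and drinking water with L-NAME at 0.5 g/L, a drug that blocks the enzymes that make nitric oxide. Controls ate chow, and no age or duration was available for them here, so a match in age was not checked. The regimen serves to model HFpEF (heart failure with preserved ejection fraction), in which the heart fills poorly while its pumping fraction is kept. Hearts were minced and digested with collagenase before the vesicles were spun down, so vesicles of any heart cell, and of blood held in the tissue, could be present. Diet and drug were given together, and their parts cannot be told apart. No label ties a library to a separate mouse, and a p-value then speaks only of how these libraries vary, which may be technical.

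MiRNAs are short RNAs that guide the Argonaute proteins to messenger RNAs whose 3′ untranslated region (UTR) pairs with the seed, bases 2 to 8 of the miRNA, and so lower their stability and translation. The miR-29 family is known for repressing messenger RNAs of collagens, elastin and other proteins of the extracellular matrix, and in the heart it is known chiefly from fibroblasts, where a fall of miR-29 accompanies fibrosis. Each hairpin precursor is cut into a 5p and a 3p strand, and of miR-29 hairpins the 3p strand is the one usually kept by Argonaute. No collagen RNA or protein was measured in these libraries.

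The 3 mature 3p arms are shown first because their sequences decide both what they can pair with and how well reads of one member can be separated from reads of another. They are given 5′ to 3′ from the RefSeq annotation of GRCm38.p6, with the seed in capitals.
miR-29a-3p: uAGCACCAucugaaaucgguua
miR-29b-3p: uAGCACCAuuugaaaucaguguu
miR-29c-3p: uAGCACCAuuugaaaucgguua

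All 3 share 1 seed, which occurs in 3 of the 1679 mature mouse miRNAs of the RefSeq table (0.179%), that is, in no miRNA outside the family. The first 9 bases are the same in the 3 arms. Counting from 1 at the 5′ end, miR-29c-3p differs from miR-29a-3p by C10U alone, so 21 of 22 bases match. miR-29b-3p differs from miR-29a-3p by C10U, G18A, U21G and A22U and is 23 bases long. Its last bases, 18 to 23, read AGUGUU, a motif known to send human miR-29b to the cell nucleus. That motif was found on the given strand in 12 of 1679 mature miRNAs (0.715%), anywhere in the sequence, and overlaps no seed here. Because a change of 1 base separates miR-29a-3p from miR-29c-3p, and the treatment of reads that match several miRNAs is not given in the sources used here, the split of counts between this pair is uncertain.

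The 5p arm of Mir29c is shown because it was as abundant as a 3p arm, and the 5p arm of Mir29a is set beside it because it was nearly absent. The seeds in capitals differ from the 3p seed and from each other.
miR-29c-5p: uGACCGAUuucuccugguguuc
miR-29a-5p: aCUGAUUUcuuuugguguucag

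The family is encoded by 2 hairpin clusters. On chromosome 6, minus strand, Mir29a lies at chr6:31062660-31062747 and Mir29b-1 at chr6:31063023-31063093 (GRCm38.p6), with 275 bases between them. On chromosome 1, plus strand, Mir29b-2 lies at chr1:195037040-195037120 and Mir29c at chr1:195037547-195037634, with 426 bases between them. In the GENCODE M21 annotation of GRCm38, Mir29b-1 partly overlaps an exon of the long non-coding RNA Gm27019. Mir29b-2 and Mir29c both lie wholly within an exon of a retained-intron transcript of A330023F24Rik on the same strand, and antisense to a UTR exon of Cd46. The mature miR-29b-3p is the same in both clusters, so its counts cannot be assigned to either locus, whereas miR-29a-3p comes from chromosome 6 and miR-29c-3p from chromosome 1.

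The name of the family was set against the reference UTRs. The reverse complement of the seed, TGGTGCT in DNA letters, was searched on the sense strand of the longest annotated 3′ UTR of each protein-coding gene. It was present in 25 of 44 collagen genes (56.8%) and in 2751 of all 21007 genes (13.1%). The longer form TGGTGCTA, which contains TGGTGCT and adds a base that pairs with no seed base but favours repression, was present in 16 collagen genes (36.4%) and in 598 of all genes (2.85%). Median UTR length was 1032.5 bases for collagens and 961 for all genes, and TGGTGCT occurred 0.693 times per kilobase in collagens against 0.106 times over all genes. Sites of the main fibrillar collagens of the heart are shown with the match in capitals, Col1a1 at chr11:94952523-94952552 and Col3a1 at chr1:45348967-45348996, both on the plus strand.
Col1a1: gtgggaaggaatttcTGGTGCTAtagaagc
Col3a1: ttcaaaatgtctcaaTGGTGCTAtaataaa

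A match of letters is a description of the sequence and not a measured site. In the 882 bases searched for Col1a2, which encodes the partner chain of Col1a1, these letters did not occur. Matches to fewer bases of the seed were not searched for in any gene.

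Libraries held 238434 to 420828 miRNA counts. A second deposited value, assumed to be RPM (the count scaled to the reads of the library) because count divided by value was constant within each library, implied 21563705 to 27493798 reads, of which miRNA counts made up 0.980% to 1.85%. Levels are given in CPM, the count scaled to the miRNA counts of the library with TMM normalization. MiRNAs of 22 or 23 bases need no correction for length, although the efficiency with which each sequence is ligated was not measured. Of the 7 miR-29 rows, 4 passed the expression filter and were tested among 177 miRNAs. Those 4 were the 3 3p arms and miR-29c-5p.

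By edgeR's quasi-likelihood test, 0 of these 4 had an adjusted p under 0.05 between treated and control libraries, as had 0 of all 177 tested (0.0%). At an unadjusted p under 0.05 stood 1 of the 4, miR-29a-3p, against 28 of 177 (15.8%), of which 13 were higher (7.34%) and 15 lower (8.47%). The log2 fold change was above 0 for the 3 3p arms and below 0 for miR-29c-5p, against 86 of 177 above 0 (48.6%), and the median over all 177 was -0.02.

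mmu-miR-29a-3p, the most frequent member and the one encoded only on chromosome 6, was counted 165, 147, 115, 127 and 103 times in control libraries 1 to 5. In treated libraries 1 to 5 it was counted 196, 121, 133, 150 and 193 times. Scaled to the miRNA counts, these were 385.9, 355.9, 410.6, 351.5 and 418.7 CPM in control and 670.2, 491.9, 438.8, 456.5 and 782.1 CPM in the treated group. Every treated library thus lay above every control library, by a narrow margin for libraries 3 and 4 and by a wide one for libraries 1 and 5. Groups were apart for 7 of 177 tested miRNAs (3.95%), and in this direction for 3 (1.69%). The mean was 384.5 ± 30.7 CPM in control and 567.9 ± 151 CPM in the treated group (SD, n = 5 each), which is 1.48-fold. The log2 fold change was 0.56 ± 0.21 (SE, edgeR), with an unadjusted p of 0.0173, the 15th smallest of all, and an adjusted p of 0.204. The difference did not pass the adjusted threshold. In vesicles of a whole tissue, a change in the number of vesicles of a cell type and a change in RNA per vesicle cannot be told apart.

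The spread of miR-29a-3p was set against its counting error. Among control libraries its coefficient of variation was 7.98%, against 8.72% that counting error alone would give. Among treated libraries it was 26.6%, against 7.94% from counting. In assumed RPM the coefficients were 21.6% in control and 25.4% in the treated group, so the small spread of control held for CPM and not for RPM. Without treated library 5 the log2 fold change was 0.39 (edgeR, adjusted p = 0.560), without treated library 1 it was 0.42 (adjusted p = 0.428) and without control library 2 it was 0.57 (adjusted p = 0.333), and in these 3 fits the unadjusted p was also over 0.05.

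**Figure D1:**
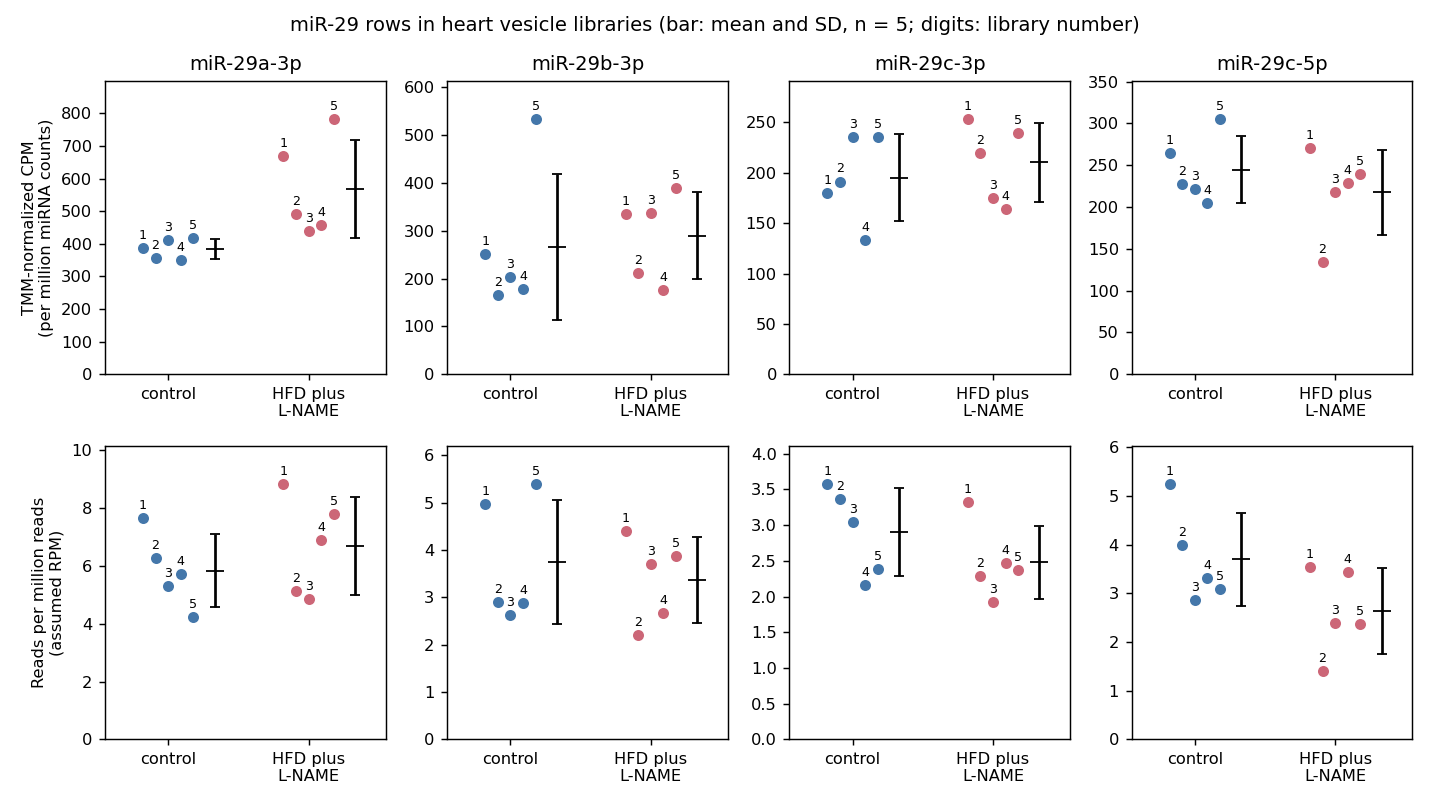
Levels of the 4 tested miR-29 rows in each library, control in blue and HFD plus L-NAME (treated) in red, as TMM-normalized CPM (top) and as assumed RPM (bottom), with library numbers above the points and the mean and SD (n = 5) beside them. In the top row the miR-29a-3p points of HFD plus L-NAME (438.8 to 782.1 CPM) all lie above control (351.5 to 418.7 CPM), while in the bottom row the groups overlap for every member.

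mmu-miR-29b-3p, the member with the AGUGUU end and 2 source loci, was counted 107, 68, 57, 64 and 131 times in control libraries 1 to 5 and 98, 52, 102, 58 and 96 times in treated libraries 1 to 5. Its levels were 250.2, 164.6, 203.5, 177.1 and 532.6 CPM in control. In the treated group they were 335.1, 211.4, 336.5, 176.5 and 389.0 CPM. Control library 5 was the highest of all 10 libraries, and every treated library lay within the range of control. Means were 265.6 ± 152.8 CPM in control and 289.7 ± 90.9 CPM in the treated group (SD, n = 5 each), a log2 fold change of 0.13 ± 0.35 (SE, edgeR, adjusted p = 0.879). The interval of 2 SE ran from -0.56 to 0.83, so a rise of the size measured for miR-29a-3p lay inside it. Without control library 5 the log2 fold change was 0.53 (edgeR, adjusted p = 0.461), and without treated library 5 it was -0.00062. The coefficient of variation was 57.5% in control and 31.4% in the treated group, against 10.8% and 11.1% from counting.

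mmu-miR-29c-3p, the arm that differs from miR-29a-3p by C10U, was counted 77, 79, 66, 48 and 58 times in control libraries 1 to 5. In treated libraries 1 to 5 it was counted 74, 54, 53, 54 and 59 times. Its levels were 180.1, 191.3, 235.7, 132.8 and 235.8 CPM in control and 253.0, 219.5, 174.9, 164.3 and 239.1 CPM in the treated group. The lowest library was control library 4 and the highest treated library 1, with the other 8 mixed between them. Means were 195.1 ± 43.1 CPM and 210.2 ± 39.1 CPM (SD, n = 5 each), a log2 fold change of 0.11 ± 0.25 (SE, edgeR, adjusted p = 0.878), with 2 SE reaching from -0.38 to 0.60. Without treated library 1 it was -0.03. Its spread, 22.1% in control and 18.6% in the treated group, was nearer to the 12.3% and 13.0% of counting than that of miR-29b-3p.

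The separate counts of the near-identical pair were also summed. miR-29a-3p and miR-29c-3p as 1 row gave a log2 fold change of 0.49 (edgeR, adjusted p = 0.212), and the groups then overlapped. They had a control maximum of 626.7 CPM and a treated minimum of 607.6 CPM. Within libraries, the log2 ratio of miR-29a-3p to miR-29c-3p was 1.01 ± 0.25 in control and 1.42 ± 0.20 in the treated group (SD, n = 5 each). This ratio does not depend on the scaling of the library. Its ranges, 0.80 to 1.40 in control and 1.16 to 1.71 in the treated group, overlapped. The log2 ratio of miR-29a-3p to miR-29b-3p was 0.68 ± 0.60 in control and 1.00 ± 0.38 in the treated group, a difference smaller than the SD of control.

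In the order of levels, miR-29a-3p was the highest of the 3p arms in 9 of 10 libraries, the exception being control library 5, where miR-29b-3p led. miR-29b-3p stood above miR-29c-3p in 7 of 10 libraries, so this neighbouring pair was not separated beyond its spread. Among all 733 rows ordered by mean level, miR-29a-3p was at place 69, miR-29b-3p at 87, miR-29c-5p at 95 and miR-29c-3p at 101. These heart vesicles therefore held the family at moderate levels, far below miR-1a-3p, the muscle miRNA that took 21.1% to 29.8% of miRNA counts in control libraries and 27.4% to 43.7% in treated libraries.

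The 3 3p arms, which share a seed, summed to 816.2, 711.8, 849.8, 661.4 and 1187 CPM in control libraries 1 to 5 and to 1258, 922.8, 950.2, 797.3 and 1410 CPM in treated libraries 1 to 5. Treated libraries 1 and 5 were the highest and control library 5 came next, so the groups overlapped. Means were 845.3 ± 205.7 CPM and 1068 ± 255.7 CPM (SD, n = 5 each), 1.26-fold. The difference of mean log2 levels was 0.34, about as large as the SD of 0.33 between libraries of a group, and no test was run on this sum. It was 0.18 without treated library 5 and 0.20 without treated library 1. The family made up 0.0851% ± 0.0223 of miRNA counts in control and 0.107% ± 0.0298 in the treated group.

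Within this sum miR-29a-3p made up 46.8% ± 6.8 in control and 53.1% ± 4.2 in the treated group. miR-29b-3p made up 29.9% ± 8.9 and 26.9% ± 5.3, and miR-29c-3p 23.3% ± 3.7 and 20.0% ± 2.6 (SD, n = 5 each). The ranges of the groups overlapped for each arm. Control library 5 stood apart by its make-up, with 44.9% miR-29b-3p (exact binomial 95% interval 39.1% to 50.8%, counting error only) and 35.3% miR-29a-3p, whereas miR-29b-3p took at most 35.4% in the other 9 libraries. Without control library 5 the group difference was 3.41 percentage points for miR-29a-3p and 0.81 for miR-29b-3p, in place of 6.29 and -2.94 with all libraries.

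**Figure D2:**
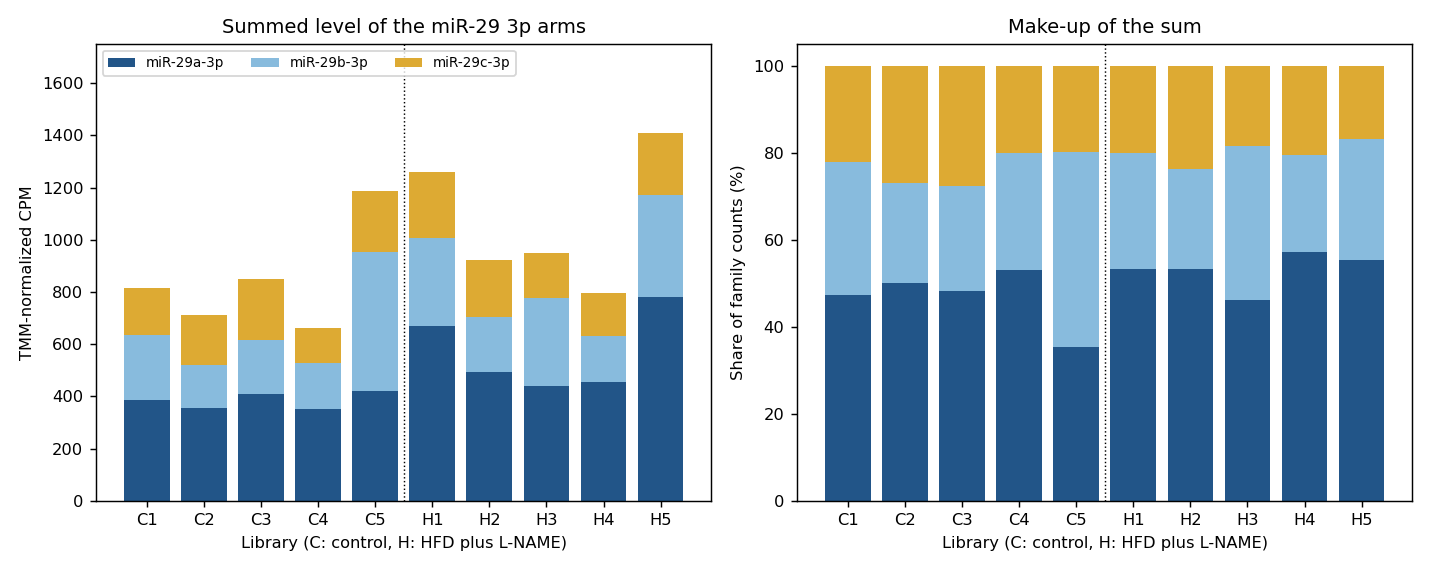
Sum of the 3 miR-29 3p arms in each library in TMM-normalized CPM (left) and the share of each arm in the family's counts in percent (right), for control (C1 to C5) and HFD plus L-NAME (H1 to H5). The sum is highest in H5 (1410 CPM) and H1 (1258 CPM), and C5 (1187 CPM) differs from the other control libraries by its band of miR-29b-3p, 44.9% of the sum.

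The difference in the family depended on what the counts were scaled to. In assumed RPM, miR-29a-3p stood at 7.65, 6.26, 5.30, 5.71 and 4.23 in control libraries 1 to 5 and at 8.81, 5.13, 4.84, 6.88 and 7.77 in treated libraries 1 to 5. On this scale the groups overlapped, as they did for all 4 tested miR-29 rows, against 7 of 177 miRNAs (3.95%) whose groups were apart, each lower in the treated group, and 0 (0.0%) higher. For miR-29a-3p this gave means of 5.83 ± 1.26 and 6.68 ± 1.70 (SD, n = 5 each). The family sum was 12.48 ± 2.20 RPM in control and 12.53 ± 2.79 RPM in the treated group, 1.00-fold. With these read totals as library sizes the edgeR log2 fold change of miR-29a-3p was 0.20 ± 0.26 (unadjusted p = 0.462). Those of miR-29b-3p and miR-29c-3p turned to -0.15 and -0.23, and that of miR-29c-5p was -0.49.

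The whole table shifted with the scale. The median log2 fold change of the 177 tested went from -0.02 with TMM to -0.38 with read totals, and the share above 0 from 48.6% to 20.3%. With miR-1a-3p removed before normalization the median was 0.12, 62.2% of miRNAs were above 0 and miR-29a-3p stood at 0.71. Relative to these medians, miR-29a-3p lay 0.58 above with TMM, 0.58 above with read totals and 0.59 above with miR-1a-3p removed. A change of scale moves all miRNAs by nearly the same amount, so these distances are alike by construction. With miRNA totals only, and no TMM factor, its log2 fold change was 0.55, but the groups overlapped (control maximum 433.4 CPM, treated minimum 426.6 CPM). They also overlapped without treated library 2 and without treated library 5, where the TMM factors were estimated anew.

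**Figure D3:**
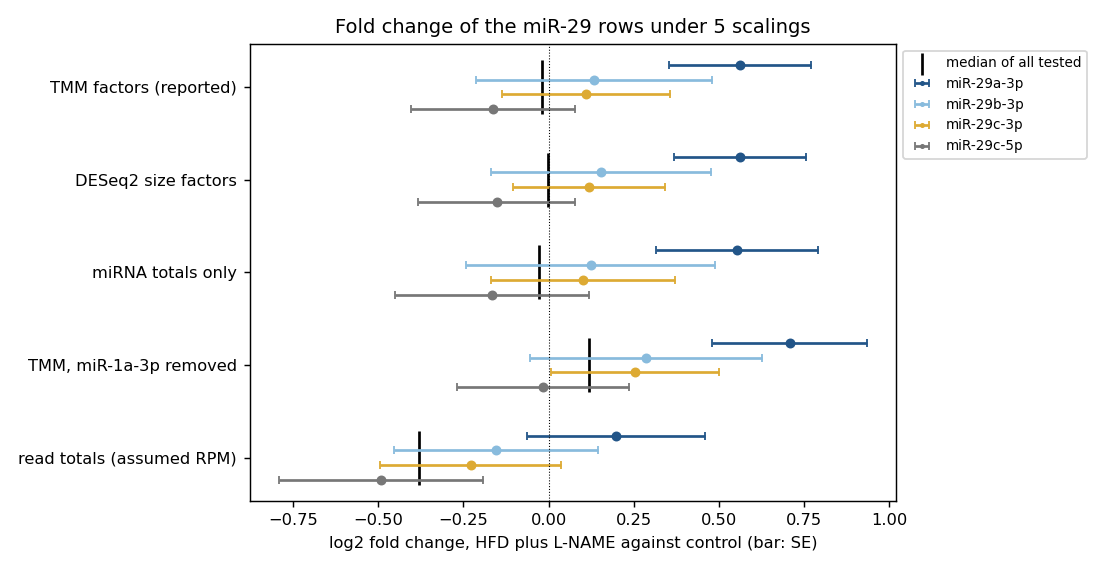
Log2 fold change of HFD plus L-NAME against control for the 4 tested miR-29 rows under 5 scalings (points, with the SE as bars) and the median of all tested miRNAs (black ticks). miR-29a-3p is the highest of the 4 under each scaling, from 0.20 with read totals to 0.71 with miR-1a-3p removed, while the median moves from -0.38 to 0.12 and miR-29b-3p and miR-29c-3p fall below 0 with read totals.

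Other tests gave miR-29a-3p a different adjusted p. By DESeq2's Wald test on the same 177 miRNAs its adjusted p was 0.0800, and 3 miRNAs (1.69%), none of them of this family, were called. With DESeq2's own filter on mean counts, which left 74 miRNAs and called 11 of them (14.9%), its adjusted p was 0.0486. By limma it was 0.203, and over all alternatives it ranged from 0.0486 to 0.669. Both DESeq2 fits had the same log2 fold change of 0.56 and the same unadjusted p of 0.00636 (Wald test). Between them the call therefore rested on how many miRNAs were tested. Against edgeR the unadjusted p differed too, being 0.0173 there.

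**Figure D4:**
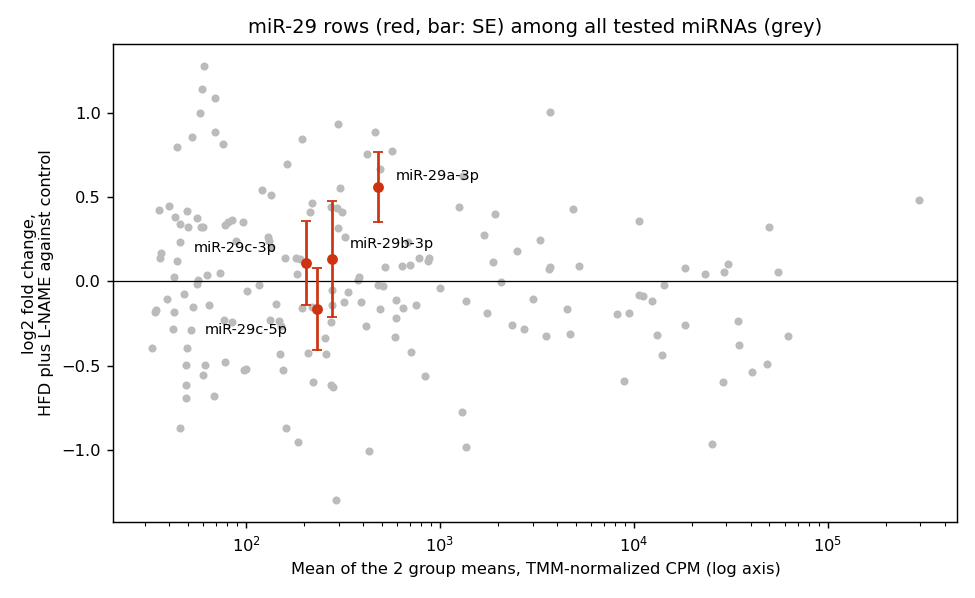
Log2 fold change (HFD plus L-NAME against control, edgeR) against mean level in TMM-normalized CPM (log axis) for the 177 tested miRNAs in grey, with the 4 tested miR-29 rows in red and their SE as bars. miR-29a-3p, at 0.56, lies above the line at 0 by more than its SE of 0.21, and the bars of miR-29b-3p, miR-29c-3p and miR-29c-5p cross the line.

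The 5p strands separated the hairpins. miR-29c-5p was counted 113, 94, 62, 74 and 75 times in control libraries 1 to 5 and 79, 33, 66, 75 and 59 times in treated libraries 1 to 5. Its levels were 264.3, 227.6, 221.4, 204.8 and 304.9 CPM in control and 270.1, 134.1, 217.8, 228.2 and 239.1 CPM in the treated group. Treated library 2 was the lowest library, and the other 9 were mixed. Means were 244.6 ± 40.1 CPM and 217.9 ± 50.7 CPM (SD, n = 5 each), a log2 fold change of -0.16 ± 0.24 (SE, edgeR, adjusted p = 0.821), with 2 SE reaching from -0.65 to 0.32.

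Over all libraries the Mir29c hairpin gave 730 counts of the 5p strand and 622 of the 3p strand, 54.0% 5p (exact binomial 95% interval 51.3% to 56.7%, counting error only). The 622 counts depend on how reads were split from the near-identical miR-29a-3p. That split is uncertain, and the interval does not cover it. As counted, the 5p strand was the more frequent in 7 libraries, equal in 1 and the less frequent in 2. Its share was 55.9% ± 4.8 in control and 50.6% ± 7.8 in the treated group (SD, n = 5 each), with overlapping ranges and a low of 37.9% in treated library 2. The Mir29a hairpin, in contrast, gave 15 counts of the 5p strand and 1450 of the 3p strand, 1.02% 5p (0.574% to 1.68%). The 15 counts of miR-29a-5p fell as 4, 1, 2, 1 and 4 in control libraries and as 1, 1, 1, 0 and 0 in treated libraries, where a count of 0 allows up to 9.13 CPM in library 4 and 12.2 CPM in library 5. These were 12 counts in control and 3 in the treated group, and miR-29a-5p did not pass the expression filter and was not tested.

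The even split of Mir29c, as counted and with the same uncertainty, was uncommon. It was compared over 81 hairpins with a row for each arm and at least 50 counts. Each had 1 5p and 1 3p name in the RefSeq table, shared with no other hairpin, and hairpins without this were left out. Among these 81 the less frequent strand made up a median of 1.77%, and in 11 hairpins (13.6%) it exceeded 25%. Mir29c, at 46.0%, ranked second after Mir144, at 47.4%. Mir29a ranked 49th. The 5p arms of both miR-29b hairpins were at the edge of detection, miR-29b-1-5p with 1 count each in control library 3 and treated library 1 and miR-29b-2-5p with 1 count in control library 5 and 2 in treated library 3. These rows are the ones that would tell the miR-29b loci apart, and 5 counts in all do not allow it.

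**Figure D5:**
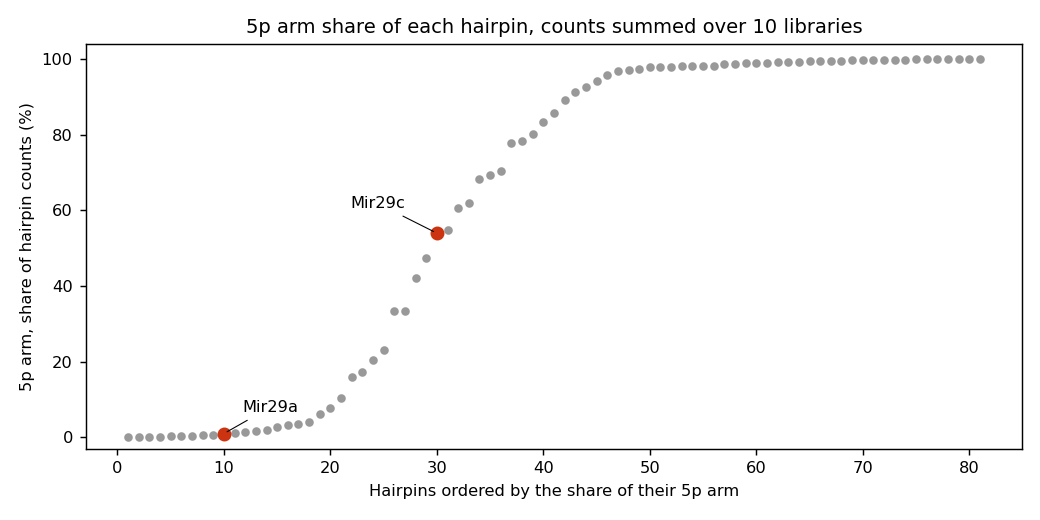
Share of the 5p arm in the counts of each of 81 hairpins, summed over the 10 libraries, in percent and ordered from lowest to highest. Most hairpins lie near 0% or 100%, Mir29a among them at 1.02%, and Mir29c lies in the middle at 54.0%.

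The miRNAs whose pattern over the 10 libraries was most like that of miR-29a-3p were found by the root mean square difference of mean-centred log2 CPM, over 173 miRNAs outside the family. They were miR-378b (0.21), miR-1a-1-5p (0.24), miR-1983 (0.26), miR-22-5p (0.28) and miR-199b-5p (0.28), against a median of 0.58 and against 0.36 for the deviation of miR-29a-3p from its own mean. miR-1a-1-5p is the partner strand of the muscle miRNA miR-1a-3p, and miR-199b-5p is known from fibroblasts and other mesenchymal cells. Within the family the difference was 0.28 for miR-29c-3p, which would take place 6, 0.44 for miR-29c-5p (place 46) and 0.47 for miR-29b-3p (place 57). The libraries shared their total counts as a scale, so part of any such likeness is common to all miRNAs.

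Marker miRNAs of heart cell types were set beside the family. The 5 mesenchymal marker miRNAs (miR-199a and miR-199b strands and miR-214-3p) all had counts and summed to 3728 to 6057 CPM in control libraries and 4452 to 10476 CPM in treated libraries. Of them 3 had a positive and 2 a negative log2 fold change, and 0 of 5 passed edgeR's adjusted threshold. At an unadjusted p under 0.05 (edgeR) 2 were higher, against 13 of all 177 tested (7.34%). The markers' median log2 fold change was 0.85, against -0.02 for all tested. It counts miR-199a-3p (1.01 ± 1.39) and miR-199b-3p (-0.19 ± 2.32, SE) apart, although they share 1 mature sequence and the split of their counts is uncertain. The markers' mean sum was 4648 CPM in control and 7050 CPM in the treated group. The sum was highest in treated library 3 (10476 CPM), the library with the lowest miR-29a-3p of its group, and next in treated library 5 (8842 CPM), the library with the highest.

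The 6 cardiomyocyte markers summed to 246874 to 359695 CPM in control and 292949 to 474246 CPM in the treated group, most of it miR-1a-3p. Of 5 tested, 3 had a positive and 2 a negative log2 fold change. miR-1a-3p (0.48 ± 0.20) and miR-208a-3p (0.63 ± 0.24) were positive, while miR-499-5p (-0.60 ± 0.15) and miR-133a-3p (-0.19 ± 0.23, log2 fold change ± SE) were negative. By edgeR 0 passed the adjusted threshold. By DESeq2's Wald test 1 did, miR-499-5p (adjusted p = 0.00492), against 3 of all 177 tested (1.69%). The 4 smooth muscle and pericyte markers summed to 42614 to 65557 CPM in control and 29629 to 40920 CPM in the treated group. These ranges did not overlap, and among single tested miRNAs the groups were apart for 7 of 177 (3.95%). Of 3 tested, 1 had a positive and 2 a negative log2 fold change. Most of the sum was miR-143-3p, which had a log2 fold change of -0.54 ± 0.17. The 5 red blood cell markers summed to 17835 to 54126 CPM in control and 9312 to 26170 CPM in the treated group. Of 5 tested, 1 had a positive and 4 a negative log2 fold change. Nearly all of this sum was miR-451a, with a log2 fold change of -0.97 ± 0.35. Neither miR-143-3p nor miR-451a passed edgeR's adjusted threshold. The mean sums of these lists, each mostly 1 miRNA, were lower in the treated group (50547 against 35813 CPM, and 34126 against 17587 CPM).

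The 2 endothelial markers summed to 61553 to 84628 CPM in control and 40453 to 73476 CPM in the treated group. Most of this sum was miR-126a-3p (-0.32 ± 0.18), while miR-126a-5p was positive (0.40 ± 0.23, log2 fold change ± SE). The 5 leukocyte markers summed to 802 to 1503 CPM in control and 671 to 1029 CPM in the treated group. Of 3 tested, 1 had a positive and 2 a negative log2 fold change. Markers of liver (3), neurons (3) and epithelium (5) summed to 455 to 841, 204 to 541 and 29.1 to 154 CPM in control and to 412 to 571, 261 to 444 and 77.2 to 218 CPM in the treated group. Of all these markers none was at 0 in every library, and their part in the levels of miR-29 was not tested.

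Other miRNAs with a known role in fibrosis were described from 2 lists. Of 16 miRNAs known to restrain fibrosis or collagen outside the miR-29 family, 12 were tested. Of these 8 had a positive and 4 a negative log2 fold change, with a median of 0.06 against -0.02 for all tested, and 0 passed edgeR's adjusted threshold. The most abundant were miR-1a-3p (0.48 ± 0.20), miR-378a-3p (0.06 ± 0.16), miR-26a-5p (-0.49 ± 0.17) and miR-24-3p (0.36 ± 0.19, log2 fold change ± SE). miR-1a-3p and miR-26a-5p thus pointed in opposite directions, neither past the threshold.

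Of 15 miRNAs known to promote fibrosis or to mark activated fibroblasts, 14 were tested, 8 with a positive and 6 with a negative log2 fold change and a median of 0.16. By edgeR 0 passed the adjusted threshold, and by DESeq2's Wald test 1 did, against 3 of all 177 tested (1.69%). It was miR-125b-5p, named here after its values were seen (edgeR log2 fold change -0.78 ± 0.22). The most abundant were miR-22-3p (-0.23 ± 0.18), miR-27b-3p (0.06 ± 0.20), miR-34a-5p (-0.32 ± 0.20) and miR-199a-3p (1.01 ± 1.39). miR-199a-3p has the same mature sequence as miR-199b-3p, so its own counts are uncertain.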

How the data were processed

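Adaptors were ligated to vesicle RNA with the MGIEasy small RNA kit, per the labels' protocols. The authors deposited a raw read count for each of 733 mature miRNAs per library, and a second value with no stated unit, assumed to be RPM because the deposited count divided by it was constant per library (largest difference 0.0015). GRCm38.p6 is the only genome build named, per the submitters' processing notes. Not given in the sources used here are the aligner, the counter and how a read with several matches was counted. Group averages in the deposited table (4 columns) were not used.

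Libraries were grouped by the treatment label, 5 control and 5 HFD plus L-NAME, and their numbers follow accession order and pair nothing. No label names a batch. Within a group, chi-square per degree of freedom between pairs of libraries was 20.2 to 130, so all libraries were distinct. Counts were tested over the whole table with edgeR 4.0.16 in R 4.3.3 (TMM, filterByExpr, robust quasi-likelihood fit, Benjamini-Hochberg adjustment, threshold 0.05), which kept 177 miRNAs, and the code was tested on simulated data. Standard errors were derived from the log2 fold change and its F statistic. A prior count of 2 entered log2 CPM. Alternatives were limma 3.58.1 with trend and DESeq2 1.42.0. Intervals and limits for a count of 0 (3 counts) cover counting error only, and reads without molecular identifiers are not independent molecules.

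The miRNAs named by rule are all miR-29 rows, the 5 most like miR-29a-3p and up to 4 of the most abundant tested members of each of 2 fibrosis lists. Some members of the cell type marker lists were named as well. miR-125b-5p was named outside the rule, after its values were seen. The members, lists and tests were chosen with earlier results of these data known, so nothing here is independent support for those results. Sequences came from RefSeq and the UTRs from GENCODE M21 (longest 3′ UTR per gene). Python 3.11.15 was used for the rest.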

Additional observations from a re-analysis of the deposited data

Results flagged for a closer look

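miR-29b-3p in control library 5 stood far from the other control libraries, at 532.6 CPM against 164.6 to 250.2 CPM, with 131 counts in the library with the fewest miRNA counts (238434). The gap to its nearest neighbour was 0.767 of the group's range, above the limit of 0.71 for 5 libraries. Of 18 groups examined this was the 1 flag, and chance alone flags about 1 group in 20. In assumed RPM, control library 5 (5.38) lay close to control library 1 (4.96).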

How the results depend on the processing

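Of all 177 miRNAs, 0 were called by edgeR. The count was 1 with no expression filter, 3 by DESeq2's Wald test and 11 with DESeq2's own filter on mean counts, an alternative chosen after seeing the data, and it ranged from 0 to 1 with a library left out (1 without control library 1 and 1 without control library 2). Of the miR-29 rows 0 were called under 18 of 19 alternatives and 1, miR-29a-3p (0.56), with DESeq2's own filter, where fewer miRNAs were tested. Under every alternative miR-29a-3p was higher in treated libraries and miR-29c-5p lower. Log2 fold changes turned with read totals for miR-29b-3p (-0.15), miR-29c-3p (-0.23) and the family sum (-0.0058), where the median of all tested was -0.38. Without treated library 5, that of miR-29b-3p was -0.00062, and without treated library 1 that of miR-29c-3p was -0.033. The cause was not tested.

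With a library left out, log2 fold changes ranged from 0.39 to 0.71 for miR-29a-3p, -0.00062 to 0.53 for miR-29b-3p, -0.033 to 0.31 for miR-29c-3p, -0.32 to -0.0033 for miR-29c-5p and 0.18 to 0.48 for the family sum. Differences of shares ranged from 3.41 to 8.02 percentage points for miR-29a-3p, -5.06 to 0.81 for miR-29b-3p and -4.30 to -2.25 for miR-29c-3p. No paired analysis was possible because the labels give the groups no shared replicate numbers. Depth limits the 5p arms of Mir29a, Mir29b-1 and Mir29b-2 to 20 counts in all.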
